A study of Homo sapiens with 16 samples.

Results

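HOX genes encode homeodomain transcription factors and lie in 4 human clusters, HOXA on chromosome 7, HOXB on chromosome 17, HOXC on chromosome 12 and HOXD on chromosome 2. The members were the HOX genes listed by name, each taken as its array row annotated to that gene alone, with the highest mean row where a gene had several. Of 38 listed genes, 27 had such a row, among 18417 genes in all. They were HOXA2, 10 HOXB genes (HOXB1 to HOXB9 and HOXB13), 7 HOXC genes (HOXC5 and HOXC8 to HOXC13) and 9 HOXD genes (HOXD1, HOXD3, HOXD4 and HOXD8 to HOXD13). HOXC4 and HOXC6 shared 1 row, and the other 9 HOXA genes listed were not analysed here. The HOXA cluster is therefore represented by HOXA2 alone.

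HOX genes set position along the head-to-tail axis of the embryo. In development, genes at the low-numbered end of a cluster act nearer the head and are switched on earlier than genes at the high-numbered end, and genes of the same number in different clusters are related copies. Polycomb complexes keep the clusters silent, Trithorax complexes keep them active, and the proteins bind DNA together with TALE homeodomain partners of the PBX and MEIS families. Cohesin, a ring-shaped complex known for pairing sister chromatids, also forms chromatin loops that CTCF stops, and HOX clusters are well known for CTCF boundaries. The embryonic forebrain does not express HOX genes.

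Affymetrix Human Gene 1.0 ST arrays measured RNA of 16 cultures from 3 established human cancer cell lines, in which STAG2, the X-linked gene of a cohesin subunit, was mutated, repaired or knocked out. H4 cells, labelled glioblastoma, were STAG2 mutant as parental cells and as clones 10 and 12, which had not recombined (deficient, n = 3), and carried a repaired STAG2 in the knock-in, post-Cre clones 8-1, 8-3 and 88-1 (corrected, n = 3), of which 8-1 and 8-3 share a clone number. 42MGBA cells, also labelled glioblastoma, were STAG2 mutant in the parental line, deficient in the knock-in clones 53 and 92 before Cre (together n = 3), and labelled corrected in the post-Cre clones 53-1, 53-7 and 92-6 (n = 3), of which 53-1 and 53-7 share one. HCT116 colorectal cancer cells had STAG2 knocked out in clones 7 and 21 (knockout, n = 2) and intact in the non-recombinant clones 24 and 27 (wild-type, n = 2). No culture was treated. Each line is a single tumour's line and each array 1 clone or parental culture, so the p-values cover the spread among these cultures alone, which may include differences between clones. In bulk RNA, fewer cells with a transcript and less of it per cell cannot be told apart.

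Levels are deposited log2 values. Array medians were at most 5.05 in 42MGBA, 6.23 to 6.30 in H4 and 6.24 to 6.29 in HCT116, so 42MGBA was compared with the other lines by percentile, the rank of a gene's row among all rows of its own array from 0 to 100. Probe sets hybridise with unequal strength, so a percentile serves to compare 1 gene between arrays, and its order among genes is only rough. For 42MGBA, line and array scale cannot be told apart. Counts of genes higher or lower in 42MGBA are by percentile, and a direction by percentile can turn in the deposited values. STAG2 had 6.57, 6.96 and 6.62 in deficient and 8.94, 8.91 and 8.87 in corrected H4 cells, 6.57 and 7.14 in knockout and 9.28 and 9.30 in wild-type HCT116 cells, and 4.75, 5.34 and 5.60 in deficient and 5.65, 5.41 and 5.53 in corrected 42MGBA cells. It fell by 2.19 (log2) in deficient against corrected H4 cells (adjusted p = 2.37e-05) and by 2.44 in knockout against wild-type HCT116 cells (adjusted p = 0.000115, or 0.0616 with that line fitted alone). In 42MGBA it differed by -0.30 (adjusted p = 1.00), so it does not check the labels of that line. Of the cell type markers, CD44 stood at a mean percentile of 97.1 in 42MGBA, 97.9 in H4 and 95.7 in HCT116. VIM, the mesenchymal filament gene, stood at 98.7 in 42MGBA, 96.3 in H4 and 39.3 in HCT116, while GFAP, the astrocyte filament gene, stood at 45.6, 49.8 and 49.5 in the same order. EPCAM and KRT8, genes of epithelia, stood at 97.0 and 99.6 in HCT116, whereas KRT20 and MUC2, genes of differentiated colon epithelium, stood at 27.9 and 42.1. Mesenchyme markers moved with the lines, with 7 of 7 over the 75th percentile in 42MGBA (88.5 to 99.8), 6 of 7 in H4 (47.1 to 98.3) and 0 of 7 in HCT116 (42.4 to 69.3), and their part in the HOX differences between lines was not tested. Of 10 glial markers 4 exceeded the 75th percentile in 42MGBA, 3 in H4 and 1 in HCT116, and of 11 colorectal markers 1 did in 42MGBA, 2 in H4 and 4 in HCT116. None of 4 blood and 4 neuronal markers did so in any line. The 4 of the glial list in 42MGBA were VIM, PDGFRA, EGFR and CD44, and the 1 in HCT116 was CD44. GFAP, OLIG2, SOX2, S100B and AQP4 of that list had a mean under the 50th percentile in every line, so the count does not show glial identity. Detection calls were not used, so a level below its array's median is not shown to be above background.

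The clearest HOX pattern lay in a stretch of the HOXD cluster, where HOXD10 and HOXD11 ranked high in 42MGBA and low in H4 and HCT116, while their neighbour HOXD12 ranked low in all 3 lines. The promoters of these 3 neighbours are shown because HOXD10 and HOXD11 carry the largest differences between lines and HOXD12 lies next to them. The HOXD12 row is not shown to be above background in any line. The sequences are RefSeq's, 300 bases around each start, on the plus strand of chromosome 2 in assembly GRCh38.p14, at chr2:176099545-176099844 for HOXD12, chr2:176107030-176107329 for HOXD11 and chr2:176116528-176116827 for HOXD10. Capitals mark a match to TGATNNAT, a joint PBX and HOX site, searched on both strands.
HOXD12: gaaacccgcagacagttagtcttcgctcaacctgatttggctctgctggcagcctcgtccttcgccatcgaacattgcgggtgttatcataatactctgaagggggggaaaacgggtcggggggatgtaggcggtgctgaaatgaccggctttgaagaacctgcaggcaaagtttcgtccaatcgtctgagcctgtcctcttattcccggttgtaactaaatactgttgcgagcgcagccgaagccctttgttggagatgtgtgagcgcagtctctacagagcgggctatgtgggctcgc
HOXD11: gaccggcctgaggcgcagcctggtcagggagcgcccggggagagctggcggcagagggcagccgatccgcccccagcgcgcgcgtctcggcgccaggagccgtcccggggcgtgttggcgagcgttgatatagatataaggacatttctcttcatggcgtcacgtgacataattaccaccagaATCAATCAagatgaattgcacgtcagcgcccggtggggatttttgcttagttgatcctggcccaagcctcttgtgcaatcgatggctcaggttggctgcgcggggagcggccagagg
HOXD10: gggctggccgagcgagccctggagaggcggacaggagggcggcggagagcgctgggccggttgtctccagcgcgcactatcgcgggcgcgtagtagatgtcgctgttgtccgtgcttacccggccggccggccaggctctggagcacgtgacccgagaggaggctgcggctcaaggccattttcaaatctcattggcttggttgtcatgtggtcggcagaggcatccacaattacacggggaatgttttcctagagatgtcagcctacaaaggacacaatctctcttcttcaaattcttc
The match in HOXD11 begins at position -67 from the start and is read from the opposite strand, and the windows of HOXD12 and HOXD10 held none. The RefSeq table held promoters of 11 of the 27 genes analysed, and 3 of the 11 had the site (HOXA2, HOXB1 and HOXD11), against 7.4% of all 35093 promoters. TTTATTG, a site of high-numbered HOX proteins, was in 1 of the 11 (HOXC5) and in 4.01% of all promoters, and TATAAA, the TATA box, was in 1 (HOXD13) and in 11.5% of all. GC content was 54.3% in HOXD12, 62.3% in HOXD11 and 60.0% in HOXD10, beside a median of 58.7% over all promoters. CpG sites numbered 19 in HOXD12, 27 in HOXD11 and 23 in HOXD10, against a median of 14. These matches describe the letters in the windows and nothing about binding.

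HOX genes were classed by their rank on the arrays. A gene was called high in a line when it stood at or above the 75th percentile on every array of that line, and low when it stood under the 50th on every array. In 42MGBA 4 genes were high (HOXC10, HOXD9, HOXD10 and HOXD11), 15 lay between and 8 were low. In H4 HOXB9 alone was high, 18 genes lay between and 8 were low. In HCT116 0 genes were high, 17 lay between and 10 were low. The share of all genes that meet these rules was not computed, so the counts are not read as few or many. By cluster, the median of the genes' mean percentiles over HOXD was 66.6 in 42MGBA, 34.0 in H4 and 46.5 in HCT116. It was the value of HOXD4 in 42MGBA and of HOXD8 in the other lines, so it does not show a shift of the whole cluster. The median over HOXB was 49.5 in 42MGBA, 54.4 in H4 and 61.9 in HCT116. The medians over HOXC were closer, at 55.8 in 42MGBA, 52.4 in H4 and 49.6 in HCT116. HOXC5, HOXC11, HOXD3, HOXD8 and HOXD12 were low in all 3 lines.

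**Figure D1:**
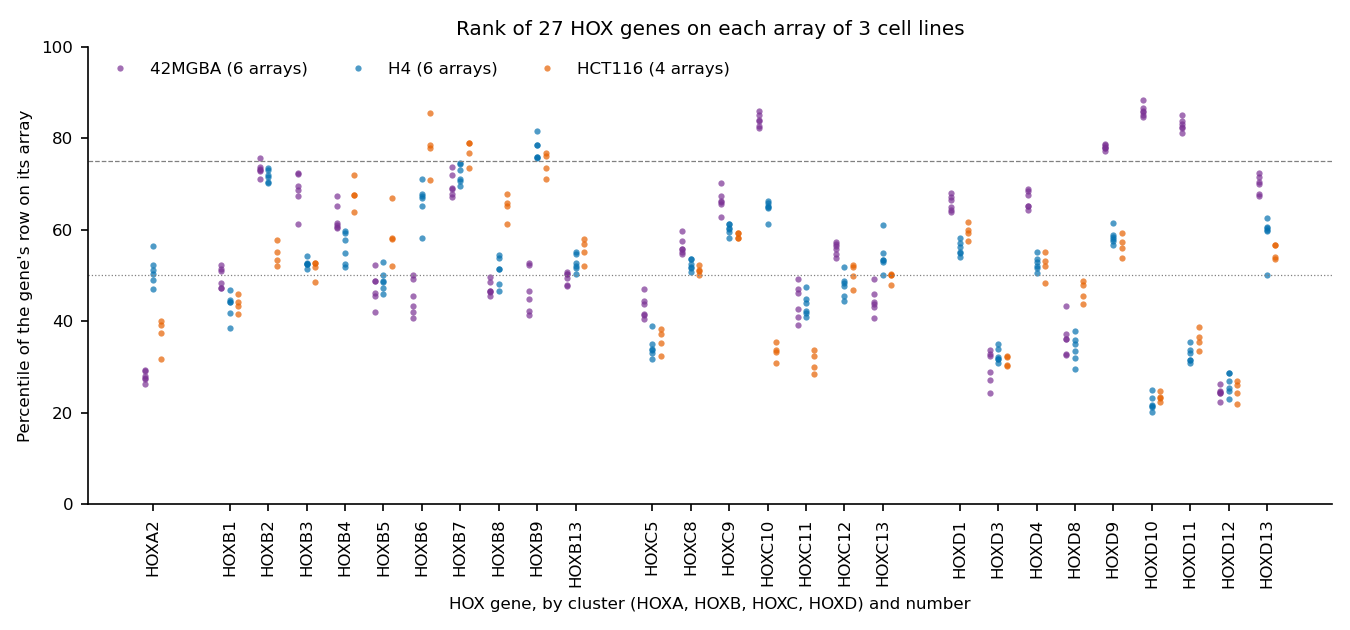
Percentile of each of 27 HOX genes on its own array (vertical axis, 0 to 100) by gene in cluster order (horizontal axis), 1 point per array, with 42MGBA left of H4 and H4 left of HCT116 within each gene, and dotted and dashed lines at the 50th and 75th percentile. HOXD10 and HOXD11 lie above 80 on every 42MGBA array and below 40 on every array of the other lines.

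The comparison of 42MGBA with H4 sets 2 lines with the same tumour label side by side. HOXD10, which in mouse shapes the lumbar spinal cord and the limbs, stood at percentiles from 84.7 to 88.5 (median 85.9) over the 6 arrays of 42MGBA and from 20.2 to 24.9 (median 21.5) over the 6 of H4. In HCT116 it stood at 22.3 and 23.5 in the knockouts and at 23.2 and 24.7 in the wild-type clones. The 42MGBA arrays were thus all far above the rest, and those of H4 and HCT116 overlapped. The 42MGBA minus H4 difference was 64.1 percentile points (SE 0.80, adjusted p = 3.73e-15), a size that 0.185% of all genes reached, and the 42MGBA minus HCT116 difference was 62.7 points (SE 0.89, adjusted p = 9.10e-15), which 0.418% reached. After all arrays were quantile normalised together, the log2 differences were 4.64 against H4 and 4.54 against HCT116. The deposited values show the same order without any change of scale, with medians of 7.44 in 42MGBA, 4.24 in H4 and 4.40 in HCT116.

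HOXD11, which patterns the forearm and kidney in mouse, stood at 81.1 to 85.2 (median 82.9) in 42MGBA and at 30.9 to 35.4 (median 32.2) in H4. In HCT116 it stood at 33.4 and 35.5 in the knockouts and at 36.5 and 38.8 in the wild-type clones. Again no array of 42MGBA overlapped with the other lines. The difference was 50.4 points against H4 (SE 0.69, adjusted p = 7.34e-15) and 47.0 points against HCT116 (SE 0.77, adjusted p = 3.04e-14). HOXD9, the next gene of the cluster on the low-numbered side of HOXD10, stood at 77.3 to 78.7 (median 78.1) in 42MGBA and at 56.7 to 61.5 (median 58.3) in H4. Its HCT116 arrays stood at 53.8 and 56.1 in the knockouts and 57.4 and 59.3 in the wild-type clones. HOXD9 was 19.6 points higher than in H4 (SE 0.80, adjusted p = 1.74e-10) and 21.4 points higher than in HCT116 (SE 0.89, adjusted p = 1.78e-10). This call rests on the change of scale, since the medians of its deposited log2 values were 6.79 in 42MGBA, 6.84 in H4 and 6.72 in HCT116.

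The rest of the HOXD cluster did not follow HOXD10 and HOXD11 as a block. HOXD12, next to HOXD11, had a mean percentile of 24.4 in 42MGBA, 26.2 in H4 and 24.8 in HCT116, and differed by -1.76 points from H4 (95% interval -4.33 to 0.81, adjusted p = 0.191). HOXD13, the gene of inherited synpolydactyly, was higher in 42MGBA by 11.0 points against H4 (adjusted p = 4.74e-05) and by 14.7 points against HCT116 (adjusted p = 9.05e-06). HOXD1 and HOXD4 were higher in 42MGBA than in H4 by 9.90 and 14.0 points. For these 3 genes the direction turns with the scale. The deposited medians of HOXD13 were 6.25 in 42MGBA, 6.96 in H4 and 6.61 in HCT116, and in 42MGBA and H4 those of HOXD1 were 6.00 and 6.65 and those of HOXD4 6.02 and 6.43. HOXD3 stood at 29.8 in 42MGBA, 32.6 in H4 and 31.3 in HCT116, with a difference of -2.74 points from H4 (adjusted p = 0.104). HOXD8 was not called against H4 (2.39 points, adjusted p = 0.254) and differed by -10.1 points from HCT116 (adjusted p = 0.000587).

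HOXC10, a high-numbered gene of the HOXC cluster that acts in the lumbar region in mouse, stood at 82.3 to 85.9 (median 83.9) in 42MGBA and at 61.3 to 66.3 (median 65.1) in H4. In HCT116 it stood at 30.8 and 35.4 in the knockouts and at 33.6 and 33.3 in the wild-type clones. The arrays of the 3 lines formed 3 groups with no overlap. The difference was 19.3 points against H4 (SE 1.03, adjusted p = 2.01e-09) and 50.7 points against HCT116 (SE 1.15, adjusted p = 5.67e-13). The deposited medians were 7.24 in 42MGBA, 7.33 in H4 and 5.14 in HCT116, so the order of 42MGBA and H4 rests on the change of scale and that of 42MGBA and HCT116 does not.

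By percentile the HOXB genes ran both ways, and HOXA2 ranked lower in 42MGBA. HOXB1, HOXB3 and HOXB4 were higher in 42MGBA than in H4, by 6.19, 15.9 and 6.66 points, while HOXB6, HOXB8, HOXB9 and HOXB13 were lower. Against HCT116, HOXB1, HOXB2 and HOXB3 were higher, by 5.85, 18.7 and 17.2 points, and HOXB4 to HOXB9 and HOXB13 were lower. For the HOXB genes higher in 42MGBA the direction turns with the scale. The deposited medians of HOXB1 were 4.99 in 42MGBA, 5.88 in H4 and 5.84 in HCT116, and those of HOXB3 6.21, 6.44 and 6.4. Those of HOXB4 were 5.73 in 42MGBA and 6.69 in H4, and those of HOXB2 6.44 in 42MGBA and 6.55 in HCT116. HOXB9, which acts in the thoracic region in mouse, stood at 41.4 to 52.7 (median 45.8) in 42MGBA and at 75.7 to 81.7 (median 77.2) in H4. In HCT116 it stood at 76.2 and 76.9 in the knockouts and at 73.6 and 71.1 in the wild-type clones. Every 42MGBA array was thus below every array of the other lines, and HOXB9 differed by -31.0 points from H4 (95% interval -35.4 to -26.7, adjusted p = 1.23e-08) and by -27.7 points from HCT116 (SE 2.24, adjusted p = 1.09e-07). HOXB6 stood at 40.6 to 50.1 (median 44.4) in 42MGBA and at 58.3 to 71.1 (median 67.2) in H4. In HCT116 it stood at 78.5 and 85.6 in the knockouts and at 77.8 and 71.0 in the wild-type clones. No 42MGBA array overlapped with either other line, and HOXB6 differed by -21.0 points from H4 (SE 1.78, adjusted p = 1.75e-07) and by -33.1 points from HCT116 (SE 1.99, adjusted p = 6.21e-09).

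HOXA2, which patterns the second pharyngeal arch in mouse, stood at 26.3 to 29.3 (median 27.8) in 42MGBA and at 47.0 to 56.5 (median 50.7) in H4. Its HCT116 arrays stood at 40.0 and 31.8 in the knockouts and at 37.4 and 39.1 in the wild-type clones, between the other lines. The difference was -23.1 points from H4 (SE 1.48, adjusted p = 1.13e-08) and -9.16 points from HCT116 (SE 1.65, adjusted p = 0.000214). HOXB8 stood at 45.6 to 49.6 (median 46.6) in 42MGBA and at 46.5 to 54.4 (median 51.5) in H4, whose arrays overlapped. In HCT116 it stood at 65.8 and 67.8 in the knockouts and at 65.2 and 61.3 in the wild-type clones. HOXB8 was lower in 42MGBA than in HCT116 on every array, by a difference of -17.8 points (SE 1.57, adjusted p = 2.60e-07).

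Against H4, 20 of the 27 genes (74.1%) differed in percentile at an adjusted p under 0.05 in limma, beside 77% of all 18417 genes. Of these, 14 (51.9%) were higher in 42MGBA, against 40.7% of all genes, and 6 (22.2%) were lower, against 36.3%. Against HCT116, 25 genes (92.6%) differed, beside 76.3% of all genes. Here 15 (55.6%) were higher, against 39.3%, and 10 (37%) were lower, against 36.9%. Since most genes on the arrays passed between these lines, the count of called HOX genes is read against those shares. The median difference over the 27 genes was 4.07 points against H4, beside 0.42 over all genes, and 5.65 points against HCT116, beside 0.31. Of the 14 genes higher than in H4 by percentile, 2 (HOXD10 and HOXD11) also had the higher median of deposited values in 42MGBA, and of the 15 higher than in HCT116, 4 did (HOXC10, HOXD9, HOXD10 and HOXD11). All 6 genes lower than in H4 and all 10 lower than in HCT116 were lower in the deposited medians too. This is no separate check, since the array medians of 42MGBA are lower and a gene of lower rank there will mostly have a lower value. All HOX genes not called against H4 differed by less than 3 points: HOXB2, HOXB5, HOXB7, HOXC11, HOXD3, HOXD8 and HOXD12.

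**Figure D2:**
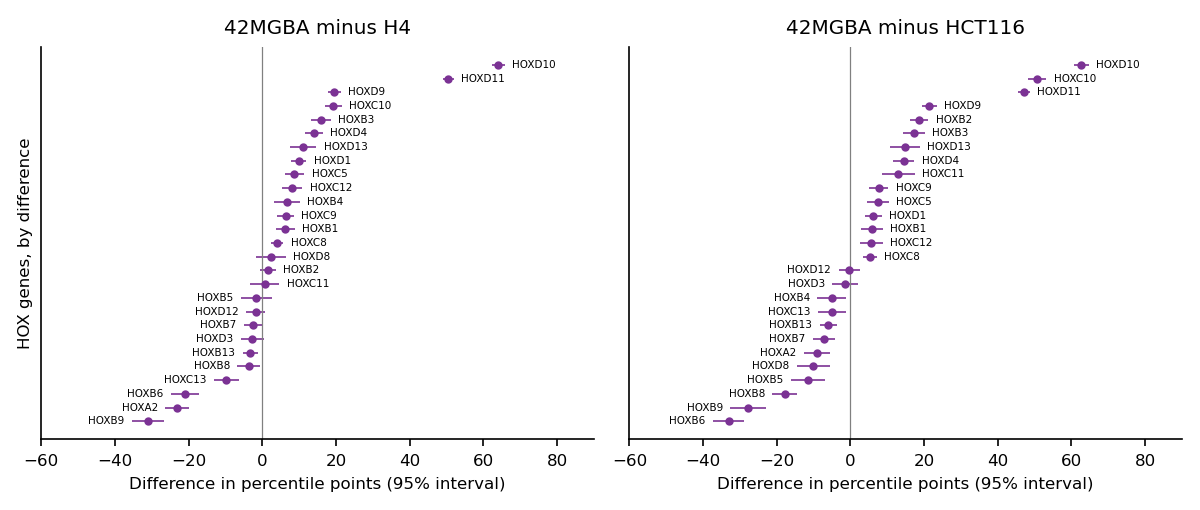
Difference in within-array percentile (horizontal axis, percentile points) with its 95% interval for each of 27 HOX genes, ordered by size from the bottom up, 42MGBA minus H4 on the left and 42MGBA minus HCT116 on the right. HOXD10 lies at 64.1 and 62.7 points, and HOXB9 and HOXB6 lie at the negative end of both panels.

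H4 and HCT116 were on 1 scale and were compared as log2 values. HOXC10 had the largest difference of the 27 genes. Its level was 7.01 to 7.41 (median 7.33) over the 6 H4 arrays, against 4.95 and 5.30 in the HCT116 knockouts and 5.15 and 5.13 in the wild-type clones. The groups did not overlap, and the level was 4.46-fold higher in H4 (log2 difference 2.16, SE 0.09, adjusted p = 2.40e-11), a size that 3.25% of all genes reached. HOXB2, which acts in the hindbrain in mouse, had 7.70 to 8.02 (median 7.83) in H4, against 6.77 and 6.42 in the knockouts and 6.60 and 6.49 in the wild-type clones. It was 2.42-fold higher in H4 (log2 difference 1.27, SE 0.08, adjusted p = 3.32e-09), also without overlap. HOXA2 had 6.02 to 6.74 (median 6.32) in H4, against 5.58 and 5.02 in the knockouts and 5.41 and 5.55 in the wild-type clones, and was 1.94-fold higher in H4 (adjusted p = 3.80e-06). HOXC11 and HOXC13, of which HOXC13 regulates hair keratin genes, were higher by 0.88 and 0.31 on the log2 scale (adjusted p = 4.71e-05 and 0.0349). HOXC11 lay under the array median on every array of both lines. The HOXC13 call was lost on leaving out any of H4 parental cells, clone 10 or 8-1, HCT116 wild-type clone 24 or 27, or knockout clone 7 (0.23 to 0.32, adjusted p = 0.0579 to 0.126).

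A run of neighbouring HOXB genes, HOXB4 to HOXB8, was lower in H4. HOXB6 had 6.81 to 7.79 (median 7.49) in H4, against 8.41 and 9.03 in the HCT116 knockouts and 8.35 and 7.75 in the wild-type clones. The highest H4 array lay above the lowest HCT116 array. The log2 difference was -0.98 (SE 0.15, adjusted p = 4.91e-05), and it was -1.53 (adjusted p = 0.000574) between H4 deficient and HCT116 knockout cells and -0.43 (adjusted p = 0.0549) between H4 corrected and HCT116 wild-type cells. HOXB8 had 5.99 to 6.59 (median 6.38) in H4, against 7.34 and 7.49 in the knockouts and 7.29 and 7.02 in the wild-type clones. These groups did not overlap, and the difference was -0.95 (SE 0.11, adjusted p = 2.62e-06). HOXB4, which expands blood stem cells when overexpressed, differed by -0.82 (adjusted p = 3.11e-05), HOXB5 by -0.65 (adjusted p = 0.000888) and HOXB7 by -0.39 (adjusted p = 0.00344). As for HOXB6, the size was larger between the deficient and knockout cells. The test of the difference between the STAG2 effects of H4 and HCT116 called no HOX gene (lowest adjusted p = 0.137). Between H4 deficient and HCT116 knockout cells HOXB5 differed by -0.97 (adjusted p = 0.00417) and HOXB7 by -0.65 (adjusted p = 0.00288), but between H4 corrected and HCT116 wild-type cells HOXB5 differed by -0.34 (adjusted p = 0.124) and HOXB7 by -0.12 (adjusted p = 0.543). HOXB4 and HOXB8 were called in both, at -1.03 and -1.12 between the deficient and knockout cells and at -0.60 and -0.77 between the corrected and wild-type cells.

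The nearest genes outside that run were not called, and whether they differ from the run was not tested. HOXB3 differed by 0.09 (adjusted p = 0.464), HOXB9 by 0.31 (adjusted p = 0.0963) and HOXB13, best known in the prostate, by -0.18 (adjusted p = 0.0814). HOXB9 was called between H4 corrected and HCT116 wild-type cells (0.57, adjusted p = 0.0381), and HOXB13 was called without HCT116 knockout clone 7 (-0.23, adjusted p = 0.0423) or wild-type clone 24 (-0.26, adjusted p = 0.0217). Outside HOXB, HOXD8 had 4.85 to 5.47 (median 5.24) in H4, against 5.93 and 6.21 in the HCT116 knockouts and 6.13 and 5.85 in the wild-type clones. It differed by -0.83 (SE 0.14, adjusted p = 0.000126) with no overlap, although it lay under the array median in every line. HOXD1 and HOXD11 differed by -0.25 and -0.22 (adjusted p = 0.0150 for each), and single HCT116 arrays ended these calls, for HOXD1 wild-type clone 24 (-0.21, adjusted p = 0.0772) or knockout clone 7 (-0.21, adjusted p = 0.0661), and for HOXD11 wild-type clone 27 (-0.18, adjusted p = 0.0871) or knockout clone 21 (-0.18, adjusted p = 0.0798). Between H4 deficient and HCT116 knockout cells HOXD11 differed by -0.02 (adjusted p = 0.923), and HOXC13 and HOXD1 were called neither there nor between H4 corrected and HCT116 wild-type cells. HOXD11 also lay under the array median on every array of H4 and HCT116.

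In all, 13 of the 27 genes (48.1%) differed between H4 and HCT116, beside 48.9% of all genes. Of these, 5 (18.5%) were higher in H4, against 22% of all genes, and 8 (29.6%) were lower, against 26.9%. These shares lie close to those of all genes. Their median difference was 0.04, beside -0.05 over all genes.

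**Figure D3:**
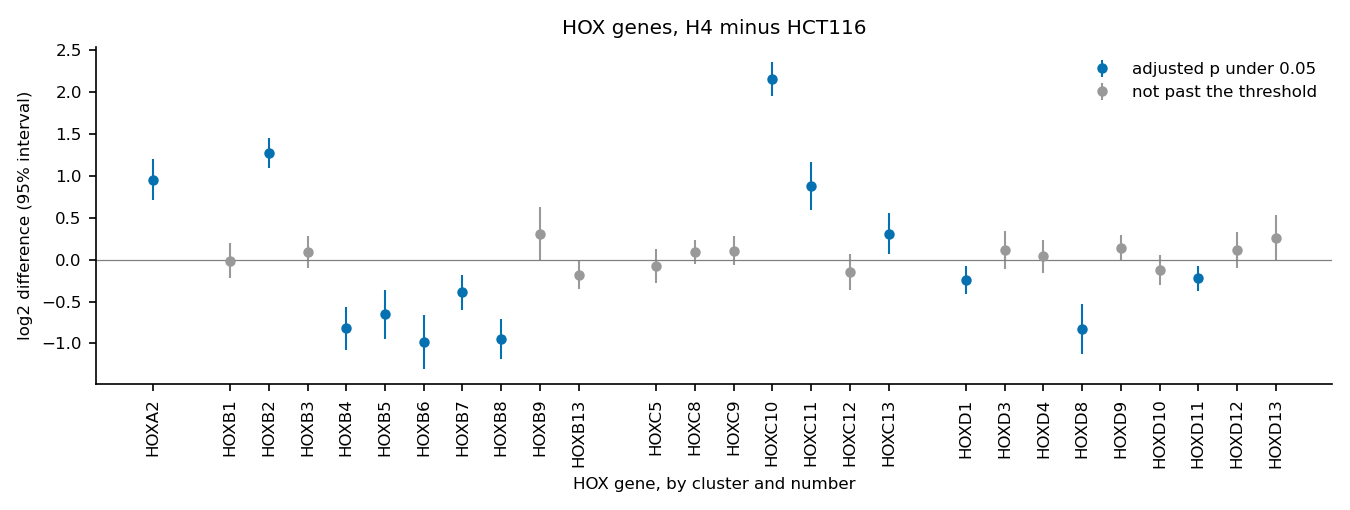
Log2 difference, H4 minus HCT116 (vertical axis), with its 95% interval for each of 27 HOX genes in cluster order (horizontal axis), blue where the adjusted p is under 0.05 and grey otherwise. HOXC10 stands at 2.16, and the neighbours HOXB4 to HOXB8 all lie below 0.

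The comparison of deficient with proficient cells asked whether HOX genes changed with STAG2. No HOX gene passed the threshold in any line. Of the 27 genes, 22 passed the filter on low values, being above the array median on at least 2 of the 16 arrays, and HOXC5, HOXC11, HOXD3, HOXD8 and HOXD12 did not. HOXB1, HOXD10 and HOXD11 passed it only through 42MGBA arrays, and HOXA2 only through H4 arrays. Each stayed under the array median on every array of the other lines. In limma, 0 of 22 were called in deficient against corrected H4 cells, beside 3.31% of the 12978 genes tested, with 1 HOX gene at an unadjusted p under 0.05. In 42MGBA 0 were called, beside 0% of all genes, with 1 at an unadjusted p under 0.05, and in HCT116 0 were called, beside 0.131%, with 2. The median differences were -0.10 in H4, 0.01 in 42MGBA and 0.02 in HCT116, beside 0.02, -0.03 and -0.01 over all genes. The furthest end of the 95% intervals lay 0.83 from 0 in H4, 0.79 in 42MGBA and 1.18 in HCT116 on the log2 scale. It was that of HOXB6 in each case. These are separate intervals of 22 genes and not a joint bound.

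HOXB6 was the gene closest to the threshold in H4 and HCT116. In H4 it had 7.31, 7.46 and 6.81 in deficient cells, against 7.52, 7.79 and 7.53 in corrected cells, a log2 difference of -0.42 (SE 0.19, adjusted p = 0.293). In HCT116 it had 8.41 and 9.03 in knockout cells, against 8.35 and 7.75 in wild-type cells, a difference of 0.67 (SE 0.24, adjusted p = 0.493). In 42MGBA it had 4.98, 5.0 and 4.73 in deficient cells, against 4.62, 4.53 and 4.42 in corrected cells, a difference of 0.38 (SE 0.19, adjusted p = 1.00). The groups did not overlap in any line, with the deficient cells lower in H4 and the deficient or knockout cells higher in the other lines. Of all genes, 8.68% were lower without overlap in H4, while 2.57% were higher without overlap in 42MGBA and 18.5% in HCT116. The nearest arrays of the 2 groups had 7.46 and 7.52 in H4 and 8.41 and 8.35 in HCT116. In 42MGBA HOXB6 stood at percentiles of 40.6 to 50.1, so it is not shown to be above background there. Single arrays moved the HOXB6 differences, to -0.23 in H4 without deficient clone 12. In HCT116 they moved the difference to 0.36 without knockout clone 21 and to 0.37 without wild-type clone 27. None of these differences was called.

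The difference between the STAG2 effects of 2 lines was tested in the same fit. For HOXB6 the H4 effect minus the HCT116 effect was -1.09 (SE 0.30, adjusted p = 0.137), and without HCT116 knockout clone 7 it was -1.41 (adjusted p = 0.0499). The H4 effect minus the 42MGBA effect was -0.80 (adjusted p = 0.264). Of the 22 genes, 0 were called between H4 and HCT116, beside 0.293% of all genes, with 4 at an unadjusted p under 0.05. Between H4 and 42MGBA 0 were called, beside 0.254%, with 2 at an unadjusted p under 0.05, and between HCT116 and 42MGBA 0 were called, beside 0.0231%, with 1. The other genes with low unadjusted p in the H4 and HCT116 pair were HOXD11 (0.40, adjusted p = 0.220), HOXB7 (-0.53, adjusted p = 0.254) and HOXB5 (-0.63, adjusted p = 0.340). HOXD11 lay under the array median on every array of H4 and HCT116, so its levels there are not shown to be above background.

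**Figure D4:**
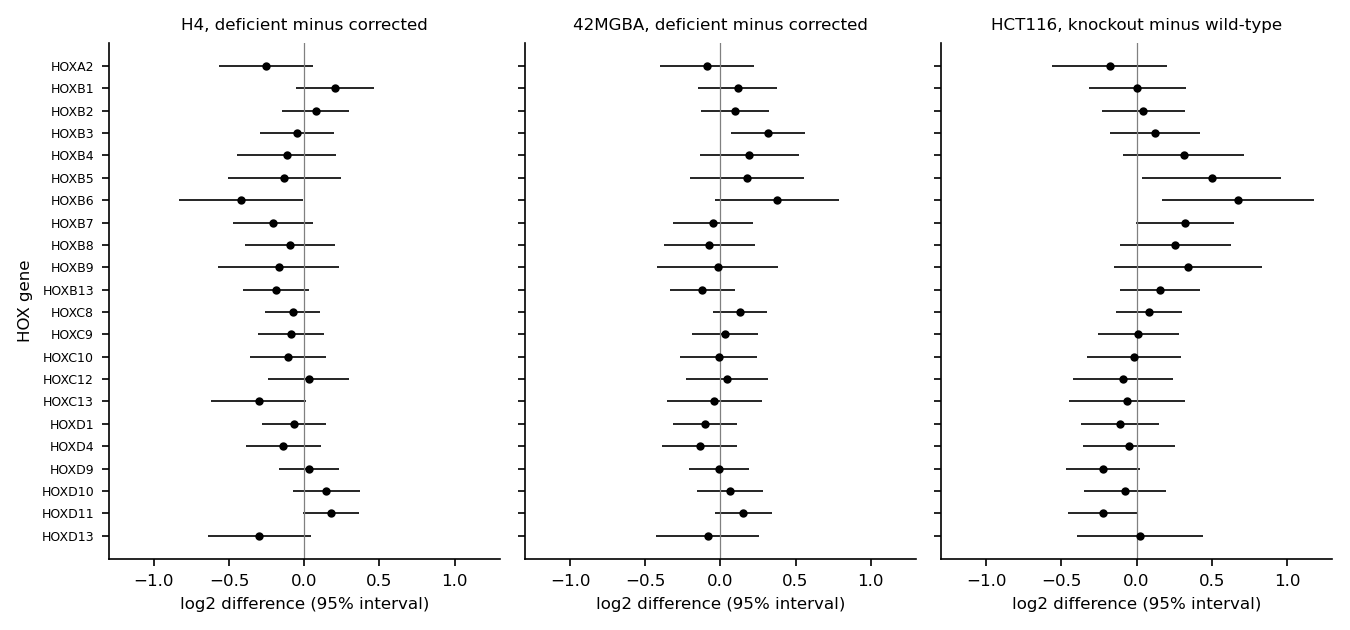
Log2 difference (horizontal axis) with its 95% interval for the 22 HOX genes tested (vertical axis, in cluster order), deficient minus corrected in H4 and 42MGBA and knockout minus wild-type in HCT116. The intervals of HOXB6 reach furthest from 0 in each line, and no gene passed an adjusted p of 0.05.

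Among the other genes with the lowest unadjusted p, HOXC13 in H4 had 6.49, 6.45 and 6.27 in deficient cells, against 7.02, 6.62 and 6.48 in corrected cells. These overlapped, and the difference was -0.30 (adjusted p = 0.323). HOXB3 in 42MGBA had 6.23, 6.39 and 6.36 in deficient cells, against 6.11, 6.18 and 5.73 in corrected cells. They did not overlap, and the difference was 0.32 (adjusted p = 1.00). HOXB5 in HCT116 had 6.77 and 7.44 in knockout cells, against 6.81 and 6.40 in wild-type cells, which overlapped, and the difference was 0.50 (adjusted p = 0.613).

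A count of genes whose groups do not overlap shows direction without a threshold. In HCT116 all knockout arrays were above the wild-type arrays in 5 of 22 HOX genes (22.7%), beside 18.5% of all genes, and these were HOXB4, HOXB6, HOXB7, HOXB8 and HOXB9. HOXB7 had 8.44 and 8.42 in knockout cells, against 8.25 and 7.97 in wild-type cells, and HOXB9 had 8.20 and 8.22, against 7.98 and 7.75. All knockout arrays were below in 2 genes (9.09%), HOXD9 and HOXD11, beside 22.1%. In H4 the deficient arrays were all above in 1 gene (4.55%), HOXD11, beside 12.1%, and all below in 2 (9.09%), HOXB6 and HOXB13, beside 8.68%. In 42MGBA the deficient arrays were all above in 3 genes (13.6%), HOXB3, HOXB6 and HOXD11, beside 2.57%, and all below in 0, beside 6.33%. These genes lie next to each other in part and share arrays, so they are not independent. HOXD11 passed the filter only through 42MGBA arrays. It lay under the array median on every H4 and HCT116 array, so its levels in those lines are not shown to be above background.

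**Figure D5:**
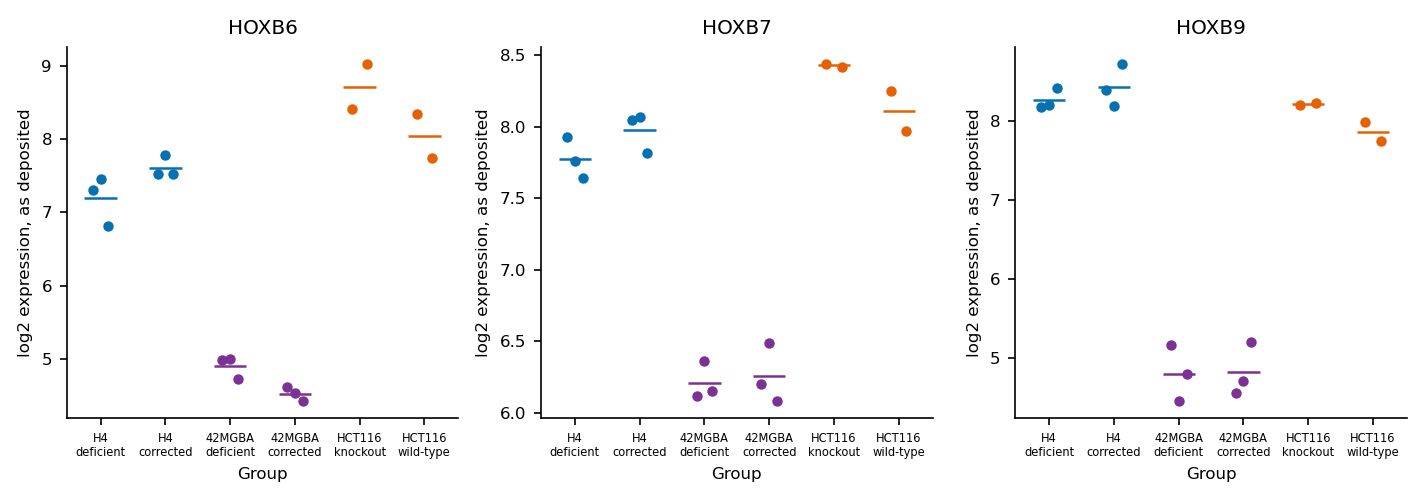
Log2 expression as deposited (vertical axis, a separate scale in each panel) of HOXB6, HOXB7 and HOXB9 in each group (horizontal axis), 1 point per array with a line at the group mean, deficient or knockout left of corrected or wild-type. Knockout arrays lie above wild-type arrays of HCT116 in all 3 panels, and the lower 42MGBA values are on another scale.

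TALE cofactors, which bind DNA beside HOX proteins, were measured for 7 of 9 listed genes. With STAG2, 0 of the 6 tested were called in any line. The lowest adjusted p was that of MEIS2 in HCT116, with 7.50 and 7.64 in knockout cells, against 7.00 and 6.48 in wild-type cells (difference 0.83, adjusted p = 0.126). Without wild-type clone 24 the MEIS2 difference was 1.08, which rests on clone 27 as the only wild-type array. Between lines, 2 of 7 were higher and 1 lower in H4 than in HCT116, beside 22% higher and 26.9% lower of all genes. In 42MGBA 5 were higher and 0 lower than in H4, beside 40.7% and 36.3% of all genes, and 6 were higher and 0 lower than in HCT116, beside 39.3% and 36.9%. Their median difference was 12.1 points against H4 and 15.3 points against HCT116. Of the 7, only MEIS1 was also higher in mean deposited log2 values (6.5 in 42MGBA, 6.21 in H4 and 4.44 in HCT116). PBX4, MEIS2, MEIS3 and PKNOX1 were lower there than in H4 (6.18, 6.8, 6.98 and 7.17, against 6.73, 7.87, 7.17 and 7.39). Their percentile order thus rests on the change of scale. MEIS1, a cofactor of high-numbered HOX proteins, stood at a mean percentile of 74.0 in 42MGBA, 49.0 in H4 and 24.0 in HCT116. Its 42MGBA level was higher than in H4 (SE of the difference 2.09 points, adjusted p = 1.59e-07) and than in HCT116 (SE 2.34, adjusted p = 5.59e-10), and it was 3.41-fold higher in H4 than in HCT116 (adjusted p = 7.59e-08). MEIS3 stood at 80.6 in 42MGBA, 63.1 in H4 and 62.1 in HCT116, and MEIS2 was 1.65-fold higher in H4 than in HCT116 (adjusted p = 6.93e-05), but not between H4 deficient and HCT116 knockout cells (log2 difference 0.20, adjusted p = 0.307).

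Trithorax genes and upstream regulators were measured for 20 of 21 listed genes. In H4, CYP26B1, whose enzyme breaks down retinoic acid, fell by 0.53 in deficient against corrected cells (adjusted p = 0.0472), the 1 call among 16 tested, beside 3.31% of all genes, and 0 were called in 42MGBA or HCT116. That call was lost in 9 of 12 alternatives, among them leaving out parental cells, deficient clone 12 or any corrected clone (-0.65 to -0.44, adjusted p = 0.0256 to 0.181 over the 12). Between lines, 4 of 20 were higher and 8 lower in H4 than in HCT116, beside 22% and 26.9% of all genes. In 42MGBA 6 were higher and 10 lower than in H4, beside 40.7% and 36.3%, and 3 were higher and 10 lower than in HCT116, beside 39.3% and 36.9%. PSIP1, which encodes the chromatin tether of MLL complexes, stood at 13.8 in 42MGBA, 84.1 in H4 and 88.4 in HCT116. It differed by -70.3 points from H4 (adjusted p = 4.26e-15), a size that 0.0706% of all genes reached. CRABP2, which carries retinoic acid, stood at 44.3 in 42MGBA, 31.3 in H4 and 81.0 in HCT116. KMT2B, an MLL family methyltransferase, was 1.83-fold higher in H4 than in HCT116 (adjusted p = 6.37e-08), and KDM6A, a demethylase of the Polycomb mark, differed by -22.7 points between 42MGBA and H4 (adjusted p = 3.25e-09).

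Polycomb and boundary genes were measured for 9 of 13 listed genes, and 0 were called with STAG2 in any line, the smallest p being that of PHC2 in HCT116 (-0.47, adjusted p = 0.485). Of the 9, 2 were higher and 4 lower in H4 than in HCT116, beside 22% and 26.9% of all genes. In 42MGBA 2 were higher and 6 lower than in H4, beside 40.7% and 36.3%, and 3 were higher and 6 lower than in HCT116, beside 39.3% and 36.9%. EZH2, the methyltransferase of the Polycomb mark, stood at 75.5 in 42MGBA, 85.9 in H4 and 90.7 in HCT116. SUZ12, its partner, stood at 79.9 in 42MGBA, 91.5 in H4 and 95.1 in HCT116. PHC1 and PHC2, subunits of the other main Polycomb complex, moved apart, at 62.9 and 82.8 in 42MGBA against 78.8 and 65.3 in H4. The mean deposited log2 level of PHC2 was 7.16 in 42MGBA and 7.33 in H4, so its direction turns with the scale.

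Noncoding RNAs of the clusters were measured for 6 of 24 listed, and 0 of the 2 tested were called with STAG2. The smallest p was that of MIR196A1 in H4 (-0.39, adjusted p = 0.194), and without deficient clone 12 it was called (-0.60, adjusted p = 0.0247). MIR196A1 passed the filter on low values only through HCT116 arrays. It lay under the array median on every H4 array, so its H4 level is not shown to be above background. Between lines, 2 of 6 were higher and 2 lower in H4 than in HCT116, beside 22% and 26.9% of all genes. In 42MGBA 1 was higher and 1 lower than in H4, beside 40.7% and 36.3%, and 2 were higher and 3 lower than in HCT116, beside 39.3% and 36.9%. MIR196A1, in the HOXB cluster, encodes a microRNA known to cleave the HOXB8 message in mouse, and its sequence is shown beside that of its HOXB neighbour with capitals for the seed, bases 2 to 8.
hsa-miR-196a-5p: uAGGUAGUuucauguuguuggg
hsa-miR-10a-5p: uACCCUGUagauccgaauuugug
The sequences are RefSeq's (GRCh38.p14, minus strand), at chr17:48632532-48632553 for miR-196a and chr17:48579904-48579926 for miR-10a, and MIR196A2 on chromosome 12 gives the same mature miR-196a. An array row measures RNA of the locus and not the mature microRNA. The MIR196A1 row stood at 36.3 to 40.0 in 42MGBA, 34.9 to 46.6 in H4 and 53.0 to 54.7 in HCT116. It differed by -0.84 (log2) between H4 and HCT116 (adjusted p = 1.73e-05), the same direction as HOXB8. The MIR10A row stood at or under 14.6 on every array. HOXB-AS3, an antisense RNA of HOXB, was 11.8 points higher in 42MGBA than in H4 (adjusted p = 3.18e-07), and HOXA-AS2 differed by -15.8 points (adjusted p = 8.01e-06). The mean deposited log2 level of HOXB-AS3 was lower in 42MGBA (5.7, against 6.21 in H4), so its direction turns with the scale.

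The 3 nearest other genes with a row on each side of each cluster, 24 in all, served as neighbours. With STAG2, 0 of the 21 tested were called in any line, the smallest p being that of SMUG1 beside HOXC in H4 (0.36, adjusted p = 0.116). Of the 24, 6 were higher and 8 lower in H4 than in HCT116, beside 22% and 26.9% of all genes. In 42MGBA 13 were higher and 10 lower than in H4, beside 40.7% and 36.3%, and 9 were higher and 7 lower than in HCT116, beside 39.3% and 36.9%. Beside HOXD, EVX2, a homeobox gene on the high-numbered side, stood at 65.0 in 42MGBA, 58.8 in H4 and 60.7 in HCT116, and MTX2, a mitochondrial import gene on the other side, stood at 57.9, 70.6 and 74.9 in the same order. Against H4, 42MGBA differed by 6.19 points for EVX2 (adjusted p = 0.000142) and by -12.7 points for MTX2 (adjusted p = 6.08e-08), beside 64.1 for HOXD10. The mean deposited log2 level of EVX2 was 5.94 in 42MGBA and 6.86 in H4, so its direction turns with the scale. LINC01116, also beyond the low-numbered end of HOXD, was 19.7 points higher in 42MGBA than in H4 (adjusted p = 2.60e-06) and 32.6 points higher than in HCT116 (adjusted p = 5.38e-08). Its mean deposited log2 levels were 6.02 in 42MGBA, 6.05 in H4 and 5.15 in HCT116. The order of 42MGBA and H4 thus rests on the change of scale. Beside HOXB, SKAP1 had a log2 difference of -1.96 between H4 and HCT116 (adjusted p = 2.24e-11), and beside HOXA, HIBADH, a valine breakdown enzyme, was 4.10-fold higher in H4 (adjusted p = 3.57e-10) and LINC02981 was 24.3 points higher in 42MGBA than in H4 (adjusted p = 1.05e-10).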

How the data were processed

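Total RNA of 16 cultures was measured, 1 array each. The deposited values are log2 expression per probe set, made by the authors using RMA in Affymetrix Expression Console, as named in the submitters' processing notes; versions, settings and the annotation's genome build are not given in the sources used here, so no array coordinates are printed. RMA puts arrays run together on 1 distribution, and the lower medians of 42MGBA show another scale.

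Groups came from sample titles. Of 33297 rows, 19460 had 1 gene in the platform annotation; 19429 symbols were updated through RefSeq (GRCh38.p14). Differences, on the log2 scale or on within-array percentiles, came from linear models in limma 3.58.1 under R 4.3.3 with empirical Bayes moderation, all arrays in 1 fit of 6 groups, two-sided, with Benjamini-Hochberg adjustment over all genes tested and a threshold of 0.05. STAG2 contrasts used 12978 genes above the array median on at least 2 arrays; line contrasts used all 18417. The fit was tested on simulated data. The number of arrays limits the precision. The 42MGBA clones with a shared parent clone were also fitted with that clone as a block. After the data were seen, a fit was added with H4 clones 8-1 and 8-3, and 42MGBA clones 53-1 and 53-7, each averaged to 1 sample, and the alternatives were recomputed for further named genes.

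The members, gene lists and tests were chosen with earlier results of these data known. Values on every array are given for members with the 3 largest differences in each direction between lines and for the 2 smallest p in each STAG2 contrast; from each further list, genes called with STAG2, or the smallest p, and the 2 largest line differences. HOXB4, HOXB7, HOXB9, EVX2, MTX2 and other genes beyond this rule were named after their values were seen.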

Additional observations from a re-analysis of the deposited data

Results flagged for a closer look

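In 81 pairs of a HOX gene and a line, 2 values stood apart from the other arrays of their line by Dixon's criterion, which chance alone meets in about 1 of 20 groups. HOXC10 in H4 clone 12 was 7.01 (log2), below the other 5 H4 arrays at 7.28 to 7.41. HOXD13 in H4 clone 10 was 6.25, below the other 5 at 6.93 to 7.13. Both arrays are STAG2-deficient, and HOXD13 did not pass the threshold in H4 (difference -0.30, adjusted p = 0.380).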

How the results depend on the processing

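Among 158 counts recomputed with another filter, normalisation, row choice, level threshold or set of arrays, 153 stayed within 1.5 times the reported count. These include the many STAG2 counts that were 0 and stayed at 0. The STAG2 counts stayed at 0, except the H4 effect minus the HCT116 effect, which ranged from 0 to 1 with single arrays left out and was 1 (HOXB6) without HCT116 knockout clone 7. High genes in H4 numbered 2 at the 70th and 0 at the 80th percentile, and in HCT116 3 at the 70th percentile and 0 to 2 with single arrays left out, with 2 without wild-type clone 27. Counts between lines ranged from 10 to 14 for H4 against HCT116, 17 to 21 for 42MGBA against H4 and 22 to 25 for 42MGBA against HCT116. For 91 pairs of a gene and a comparison, covering 41 genes, 1458 alternative values were computed, of which 1398 kept their direction and their side of the threshold, 43 lost a call, 13 gained one and 4 reversed. The reversed values were of uncalled differences between 42MGBA and H4, HOXB5 at 0.56 points in deficient groups alone, and HOXC11 at -0.04 without H4 corrected clone 88-1, -0.25 without 42MGBA deficient clone 92 and -0.48 without 42MGBA corrected clone 53-1, in a range of -0.48 to 2.05 over single arrays left out. HOXB8 between 42MGBA and H4 (-3.75 points, adjusted p = 0.0265) and HOXB4 between 42MGBA and HCT116 (-5.04, adjusted p = 0.0220) each lost the call without some single arrays, with an adjusted p of up to 0.122 over the alternatives. The causes were not tested. The replicate block of the parent clone in 42MGBA, and averaging the clones that share a clone number, each left 0 HOX genes called with STAG2. Groups of 2 or 3 arrays leave wide intervals, and probes near background may hide differences.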

Other observations

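The row shared by HOXC6 and HOXC4, which cannot be assigned to either gene, stood at a mean percentile of 72.6 (70.7 to 75.7) over the 6 arrays of 42MGBA, 54.1 (50.4 to 56.1) over the 6 of H4 and 39.2 (37.1 to 42.7) over the 4 of HCT116. By percentile this is the same order of lines as for HOXC10. The mean deposited log2 levels of the row were 6.41 in 42MGBA, 6.54 in H4 and 5.54 in HCT116. The order of 42MGBA and H4 thus rests on the change of scale, as it does for HOXC10. With STAG2, the row had a log2 level of 6.44 ± 0.16 in deficient and 6.65 ± 0.04 in corrected H4 cells (SD, n = 3 each), and 5.65 ± 0.21 in knockout and 5.44 ± 0.06 in wild-type HCT116 cells (SD, n = 2 each). In 42MGBA it was 6.42 ± 0.18 in deficient and 6.40 ± 0.10 in corrected cells (SD, n = 3 each). The row was not tested.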
